A study of Mus musculus with 21 samples.

Results

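The effect of EPHA2 knockout was compared between 6694c2 and 6419c5, 2 clones of mouse pancreatic tumour cells. The comparison covered 14337 of the 24623 genes in the deposited table, those with at least 1 TPM in at least 3 of the 21 libraries. TPM (transcripts scaled to a fixed total per library) gives a gene's level relative to all transcripts of a library and per transcript length. For each gene and clone the knockout effect was the mean of the knockout lines KOA and KOB less the parental line, on the log2(TPM + 1) scale. The quantity described below is the effect in 6694c2 minus the effect in 6419c5, called the difference between the clones. A difference above 0 means that the gene went up more, or down less, with knockout in 6694c2.

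Clone 6694c2 had 4 libraries of each of its 3 lines, and clone 6419c5 had 3 libraries of each. The parental line is called WT. Its libraries carry the clone name alone, and the KOA and KOB libraries are labelled as EPHA2 knockouts of the same clone. All cells had been grown as tumours under the skin of C57BL/6 mice and were sorted from the tumours at 3 weeks, with no treatment in any group. The labels give neither the editing method nor the sort gate, and they do not say whether a knockout line grew from 1 cell or whether libraries came from separate animals. The p values therefore measure the spread between libraries, which may be technical. The effects of both knockout lines of a clone are measured against the same WT libraries and are not independent, and they are given side by side. The letters A and B carry no meaning between the clones.

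EPHA2 belongs to the Eph receptors, tyrosine kinases of the cell surface. It signals on contact with ephrin-A ligands on neighbouring cells, and without ligand it can act downstream of growth factor kinases. It is known in pancreatic cancer for its high level in many tumours and for its links to RAS signalling, cell adhesion and migration.

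Epha2 itself (chromosome 4, 141301221 to 141329384 on mm10) measured 244, 239.9, 243 and 252 TPM in WT, 108, 92.1, 129.7 and 129.7 in KOA and 90.9, 113, 99.0 and 88.0 in KOB of 6694c2. Its levels in 6419c5 were 164, 175 and 190.4 TPM in WT, 144, 152 and 156 in KOA and 169.7, 201 and 221 in KOB. The 8 knockout libraries of 6694c2 lay below every WT library, whereas in 6419c5 KOA lay below WT and KOB overlapped its upper end. The difference was −1.18 ± 0.14 (adjusted p 6.79e-06), from an effect of −1.21 in 6694c2 and −0.03 (95% interval −0.25 to 0.18) in 6419c5. The transcript level thus checks the knockout label in 6694c2 and leaves the label of the 6419c5 lines unchecked, and it does not measure protein. Below, knockout libraries of 6419c5 are libraries so labelled.

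Some libraries stood apart. The 4 KOA libraries of 6694c2 fell into pairs, with 4.54 and 4.86 for libraries 1 and 2 on the second principal component and 31.65 and 33.39 for libraries 3 and 4. Macrophage markers, 10 genes in all, summed to 1009 to 2597 TPM in WT, 337 to 4379.8 in KOA and 449 to 598 in KOB of 6419c5. In 6694c2 their sums were 336 to 1495, 317 to 1049.5 and 208 to 490.1 TPM. Fibroblast and pericyte markers, 8 genes, summed to 799.8 to 1163 TPM in WT, 544 to 702 in KOA and 1441 to 2080.1 in KOB of 6419c5, and to 184 to 276, 204 to 708 and 52.0 to 96.5 in 6694c2. Keratins 8, 18 and 19 with Epcam and Cdh1, markers of the tumour epithelium, were present in every library, at a sum of at least 5367 TPM. In bulk RNA, fewer cells of a type and less RNA per cell cannot be told apart.

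By limma, with adjustment over all genes tested, 4104 genes (28.6%) differed between the clones in their response, 1864 (13.0%) with a difference above 0 and 2240 (15.6%) below. The knockout effect itself was called higher in 23.9% and lower in 13.5% of genes in 6694c2, and in 26.5% and 15.0% in 6419c5. Of the 4104 genes, 2820 had an effect called in 1 clone, with both lines of that clone on the same side of 0, and not in the other, and 523 were called in opposite directions. A further 445 were called in the same direction in both clones, 128 of them with the larger effect in 6694c2 and 317 in 6419c5. The remaining 316 had no effect called in either clone (169) or had knockout lines on opposite sides of 0 in the called clone (147). A difference of at least 1 on the log2 scale was called for 980 genes, 492 above 0 and 488 below.

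Among genes called in 6694c2 alone, 588 (4.10%) were higher and 444 (3.10%) lower. In 6419c5 alone, 1067 (7.44%) were higher and 721 (5.03%) lower. A missing call is not a missing effect, so the interval of the other clone was read as well. It lay within 0.5 of 0 on the log2 scale for 432 of the 588, 313 of the 444, 937 of the 1067 and 560 of the 721 genes. In 31, 23, 65 and 45 genes of these 4 classes the other clone held under 0.5 TPM in each line. Opposite changes were called for 238 genes (1.66%) higher in 6694c2 and lower in 6419c5, and for 285 (1.99%) the other way. In 209 and 236 of them both knockout lines of both clones had the sign of their clone.

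These counts rest on libraries as the unit of error. All 4 pairings of 1 knockout line of 6694c2 with 1 of 6419c5 called 1053 genes (7.34%) in the same direction. When the line was taken as the unit instead, as a random effect with a correlation of 0.546 between libraries of a line, 39 genes (0.272%) were called, 15 above 0 and 24 below, and 1139 had an unadjusted p under 0.05. Those 39 genes include Tff2, Krt79, Krt14, Krt15, Klf5, Fzd8, Gjb2, Gpx8, Ntn1, Plat and Rrm2, which are described below. Without KOA libraries 1 and 2 of 6694c2 the calls were 2303 above 0 and 2246 below, and without libraries 3 and 4 they were 1802 and 2619.

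**Figure D1:**
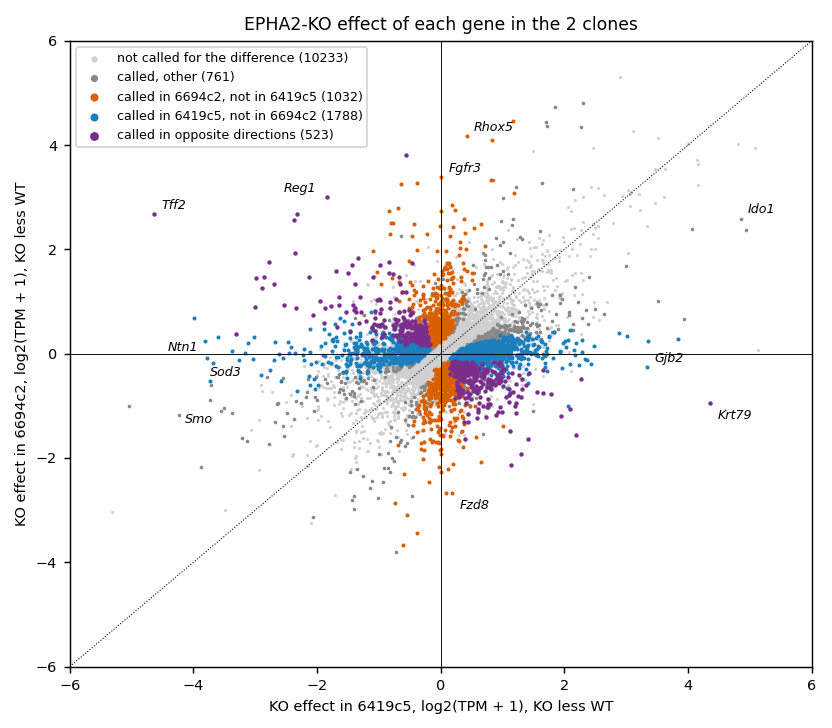
Knockout effect on the log2(TPM + 1) scale in 6419c5 (horizontal axis) and 6694c2 (vertical axis), 1 point per tested gene, coloured by class. The dotted line marks equal effects. The 1032 genes called in 6694c2 alone spread along the vertical axis, the 1788 called in 6419c5 alone along the horizontal axis, and the 523 opposite genes lie in the upper left and lower right of the plot.

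Genes of cholesterol synthesis fell in 6694c2 and, in part, rose in 6419c5. Of 24 tested genes of the pathway, 0 had a difference above 0 and 21 below, against 13.0% and 15.6% of all genes. The median member fell by 0.70 in 6694c2 and measured 0.30 in 6419c5, where the medians of all genes were 0.071 and 0.076. In 6694c2, 22 members were called lower and 0 higher (13.5% and 23.9% of all genes). In 6419c5, 12 were called higher and 2 lower (26.5% and 15.0% of all genes). The line medians were −0.46 (KOA) and −0.85 (KOB) for 6694c2 and 0.31 for each line of 6419c5.

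As background, the pathway builds cholesterol from acetyl-CoA through mevalonate, farnesyl diphosphate, squalene and lanosterol. Its genes are switched on together by SREBP2, the product of Srebf2, a transcription factor that is released from the endoplasmic reticulum when membrane sterol is low. At its target promoters SREBP2 binds a sterol response element and works with NF-Y, which binds the letters CCAAT.

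The promoters below are shown because the members moved together, and they hold the most copies of CCAAT among the 19 promoters searched. The other promoters held 0 to 3 copies, with 3 for Msmo1, whose difference was called, and 3 for Hsd17b7, whose difference was not. Each promoter shown is a RefSeq sequence on GRCm38.p6, from 250 bases before to 50 after the gene's start. Each is written 5′ to 3′ on the strand of the gene. Capitals mark CCAAT, or ATTGG where it lies on the other strand, and, in the first, a stretch that reads TCACNCCAC.

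Hmgcs1 promoter (chr13:119690101-119690400, plus strand): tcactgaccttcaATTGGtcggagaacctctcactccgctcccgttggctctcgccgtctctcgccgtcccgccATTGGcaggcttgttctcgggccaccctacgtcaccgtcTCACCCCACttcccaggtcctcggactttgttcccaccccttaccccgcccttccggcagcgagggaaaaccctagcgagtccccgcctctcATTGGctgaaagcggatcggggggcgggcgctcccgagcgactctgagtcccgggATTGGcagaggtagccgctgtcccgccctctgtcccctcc
Mvk promoter (chr5:114444019-114444318, plus strand): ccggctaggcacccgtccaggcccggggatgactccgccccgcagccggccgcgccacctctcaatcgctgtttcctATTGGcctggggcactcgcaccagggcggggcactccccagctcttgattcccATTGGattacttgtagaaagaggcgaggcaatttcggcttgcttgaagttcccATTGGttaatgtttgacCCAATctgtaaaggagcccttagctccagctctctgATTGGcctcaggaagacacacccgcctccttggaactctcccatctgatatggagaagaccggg
Nsdhl promoter (chrX:72918271-72918570, plus strand): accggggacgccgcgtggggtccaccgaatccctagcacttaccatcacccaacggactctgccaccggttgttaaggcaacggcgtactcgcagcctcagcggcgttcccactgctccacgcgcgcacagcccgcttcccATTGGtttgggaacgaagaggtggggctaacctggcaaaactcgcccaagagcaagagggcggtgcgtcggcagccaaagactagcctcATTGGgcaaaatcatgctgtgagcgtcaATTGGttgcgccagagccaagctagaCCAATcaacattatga

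The Hmgcs1 window held 4 copies of CCAAT, the Mvk window 5 and the Nsdhl window 4. Of 16 listed genes with a promoter in the RefSeq table, 16 held CCAAT on either strand in at least 1 promoter (16 of 19 promoters, 84.2%), where 37.4% of all 32851 promoters and 37.8% of those of tested genes held it. The letters TCACNCCAC, searched on both strands as 1 form of the sterol response element and chosen after the values were seen, were in 1 of the 19 promoters, that of Hmgcs1, and in 1.24% of all promoters. A match in these windows is a run of letters and not a measured binding site.

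At the head of the pathway, Hmgcs1, which makes HMG-CoA, measured 107, 102, 111 and 109.9 TPM in WT, 70.1, 57.3, 76.9 and 64.2 in KOA and 56.6, 65.4, 61.3 and 49.9 in KOB of 6694c2. The 6419c5 libraries held 48.3, 57.9 and 59.5 TPM in WT, 71.0, 67.4 and 59.6 in KOA and 71.6, 49.3 and 61.4 in KOB. KO levels were lower than WT in 6694c2 and overlapped WT in 6419c5, and the difference was −0.97 ± 0.15 (adjusted p 0.000101).

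Mvk, mevalonate kinase (chromosome 5, 114444264 to 114460591), showed the other form of the split. The 6694c2 libraries held 30.4, 37.1, 37.1 and 37.6 TPM in WT, 37.8, 32.6, 33.8 and 36.9 in KOA and 25.7, 28.2, 30.4 and 23.8 in KOB. In 6419c5 it measured 26.2, 27.1 and 25.4 TPM in WT, 45.5, 55.7 and 44.3 in KOA and 60.4, 50.2 and 63.1 in KOB. Every KO library of 6419c5 lay above every WT library there, while in 6694c2 KOA overlapped WT and KOB lay lower, 1 KOB library at the level of the lowest WT library. The effect was 0.98 ± 0.10 (adjusted p 3.11e-07) in 6419c5 and −0.20 ± 0.08 (adjusted p 0.0724) in 6694c2, and the difference was −1.18 ± 0.13 (adjusted p 2.61e-06).

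Fdps, farnesyl diphosphate synthase (chromosome 3, 89093588 to 89101967), was among the opposite genes. In 6694c2 it measured 365, 330.1, 361 and 373 TPM in WT, 297, 256, 236 and 245 in KOA and 179, 197, 198 and 160.2 in KOB. Its levels in 6419c5 were 188, 210.1 and 224 TPM in WT, 278, 305 and 245 in KOA and 345, 284 and 385 in KOB. Knockout libraries lay below all WT libraries in 6694c2 and above all of them in 6419c5, with no overlap in either clone. The effects were −0.71 ± 0.09 (adjusted p 4.39e-06) and 0.55 ± 0.10 (adjusted p 0.000233), and the difference was −1.27 ± 0.13 (adjusted p 1.99e-06). Pmvk, phosphomevalonate kinase (chromosome 3, 89454541 to 89469014), went the same way, with effects of −0.80 and 0.32 and a difference of −1.12 ± 0.12 (adjusted p 3.18e-06).

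Control and transport genes moved with the enzymes. Srebf2 had effects of −0.56 and 0.51, both called, and Stard4, a carrier of cholesterol within cells, had −0.53 and 0.45. Insig1, which holds SREBP in the endoplasmic reticulum, fell in 6694c2 (−0.93), with −0.03 in 6419c5.

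Of the 21 members, 10 were called in opposite directions and 9 fell in 6694c2 with no call in 6419c5. The late enzymes Lss, Tm7sf2 and Cyp51 belonged to the first kind, with effects of −0.74 and 0.42 for Cyp51. Msmo1, Fdft1, Nsdhl, Sc5d and Mvd belonged to the second, with −1.05 and 0.02 for Msmo1. Mvk and Ebp rose in 6419c5 without a call in 6694c2. Hsd17b7 and Dhcr7 were among the members with no called difference. All 4 pairings of lines called 19 of the 21, leaving out any 1 library gave 21 or 22, and rescaling by size factors, by quantiles or without Mir6236 gave 21. With the line as a random effect 0 of the 24 were called.

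**Figure D2:**
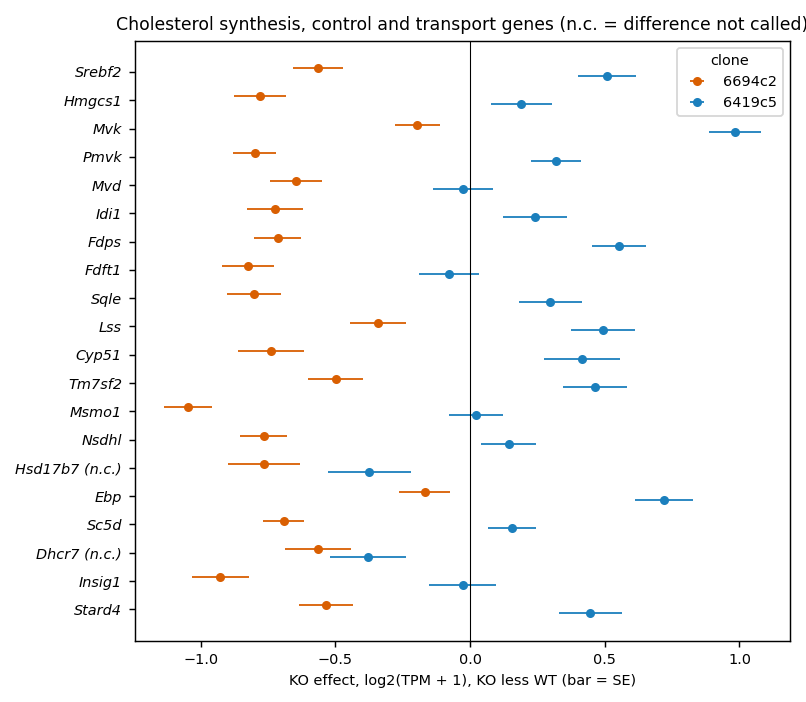
Knockout effect on the log2(TPM + 1) scale of 20 of the 24 tested cholesterol genes in 6694c2 and 6419c5, with bars of 1 standard error. The 6694c2 points lie below 0 for all genes plotted, most 6419c5 points lie above 0, and n.c. marks Hsd17b7 and Dhcr7, whose difference was not called.

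Genes of fatty acid synthesis and storage, which SREBP1 chiefly drives, shared part of the pattern. Of 20 tested, 0 were above 0 and 10 below (13.0% and 15.6% of all genes), with a median difference of −0.47. With the line as a random effect none of the 20 was called. Elovl5, a fatty acid elongase (chromosome 9, 77917365 to 77984519), measured 54.3, 55.4, 58.0 and 57.4 TPM in WT, 50.9, 49.6, 58.5 and 55.1 in KOA and 47.0, 44.4, 47.3 and 41.9 in KOB of 6694c2, beside 62.9, 65.9 and 63.2 TPM in WT, 106, 92.4 and 103 in KOA and 107, 101.03 and 107 in KOB of 6419c5. It was about level in 6694c2 KOA, a little lower in KOB and higher in every KO library of 6419c5, and the difference was −0.87 ± 0.08 (adjusted p 5.24e-07). Fasn, fatty acid synthase, rose in 6419c5 (0.93 ± 0.15) with −0.20 (adjusted p 0.249) in 6694c2, and Me1, the malic enzyme that supplies NADPH, rose in 6419c5 (1.36) with 0.28 (adjusted p 0.0943) in 6694c2. Acsl3, which activates fatty acids, fell in both lines of 6694c2 (−0.30 and −0.90) and rose in both of 6419c5 (0.55 and 0.46).

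Gastric-type secretory genes rose in 6694c2 and several of them fell in 6419c5. Of 19 tested genes of the gastric and mucin list, 10 had a difference above 0 and 2 below (13.0% and 15.6% of all genes), or 1 and 0 with the line as a random effect. In 6694c2, 13 rose and 0 fell, against 23.9% and 13.5% of all genes. In 6419c5, 5 rose, near the 26.5% of all genes, and 7 fell, against 15.0%. The line medians were 0.20 (KOA) and 1.48 (KOB) for 6694c2 and −0.42 and −0.22 for 6419c5. These are products of the mucus cells of the stomach, and in the pancreas they are known from early neoplastic lesions with gastric features.

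Tff2, a trefoil factor of gastric mucus (chromosome 17, 31141062 to 31144282), had the largest difference of the named genes. The 6694c2 libraries held 135, 237, 258 and 205 TPM in WT, 996, 875, 363 and 378 in KOA and 2589.8, 3713, 3020.4 and 2325 in KOB. The 6419c5 libraries held 40.5, 27.7 and 44.5 TPM in WT, 0.530, 0.451 and 1.56 in KOA and 1.17, 0 and 0 in KOB. All 8 KO libraries of 6694c2 exceeded WT, KOB by more than KOA, and all 6 KO libraries of 6419c5 were near 0. The effects were 2.67 ± 0.29 (adjusted p 1.3e-06) and −4.64 ± 0.34 (adjusted p 1.12e-08), the difference was 7.31 ± 0.44 (adjusted p 8.83e-09), and the adjusted p was 0.0123 in the random-effect fit.

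Tff1, the companion trefoil factor of surface mucus cells (chromosome 17, 31161395 to 31165060), was split by line in 6694c2. There it measured 522, 537, 585 and 634 TPM in WT, 814, 483, 233 and 279 in KOA and 3340.4, 6302, 4853 and 4367 in KOB. In 6419c5 it measured 13.9, 16.2 and 12.7 TPM in WT, 0.766, 1.63 and 0 in KOA and 1.62, 3.61 and 0.291 in KOB. KOA libraries of 6694c2 lay on both sides of WT, KOB libraries lay far above, and 6419c5 KO libraries all lay below WT. The line effects were −0.50 and 3.01 in 6694c2 and −3.19 and −2.60 in 6419c5, and the difference was 4.15 ± 0.50 (adjusted p 9.81e-06).

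The gastrokines, secreted proteins of the gastric mucosa, repeated this. Gkn1 (chromosome 6, 87345653 to 87350915) measured 0.788, 0, 0.408 and 1.04 TPM in WT, 4.53, 0.508, 0.0914 and 0.191 in KOA and 16.7, 81.0, 52.5 and 48.1 in KOB of 6694c2, beside 4.92, 8.26 and 4.01 TPM in WT, 0.0832, 0.354 and 0.509 in KOA and 0.157, 0.176 and 0.273 in KOB of 6419c5. In 6694c2 the rise lay in KOB, and 6419c5 KO libraries were all below WT, with a difference of 4.95 ± 0.60 (adjusted p 1.02e-05). Gkn2 and Gkn3 had differences of 5.01 and 3.90. Muc5ac, the gel-forming mucin of the gastric surface, had line effects of −0.23 and 4.74 in 6694c2 and −0.68 and −0.60 in 6419c5. Pgc, the precursor of the protease gastricsin (chromosome 17, 47726842 to 47734478), rose in both lines of 6694c2 (0.84 and 2.095) and fell in both of 6419c5 (−2.06 and −2.20), a difference of 3.60 ± 0.42 (adjusted p 6.4e-06).

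The 2 members below 0 were Anxa10 and Muc13. Muc13, a membrane mucin, rose in 6419c5 (1.51) with 0.18 in 6694c2, and Anxa10, an annexin of gastric epithelium, had 1.42 there and −1.62 and 0.50 in the lines of 6694c2. The list had 10 calls above 0 under each of the 3 other scalings, and without KOA libraries 1 and 2 of 6694c2 they numbered 11, with 5 below.

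Other secreted proteins were called in opposite directions in the same way. Reg1, a lectin-like product of acinar cells (chromosome 6, 78425983 to 78428668), measured 8.67, 6.17, 8.65 and 15.4 TPM in WT, 112, 121, 26.0 and 23.2 in KOA and 132, 135, 114 and 107 in KOB of 6694c2, beside 13.7, 13.1 and 8.30 TPM in WT, 0.159, 0.813 and 1.91 in KOA and 6.85, 10.5 and 2.303 in KOB of 6419c5. KO levels exceeded WT in all libraries of 6694c2, more in KOA libraries 1 and 2 than in 3 and 4, and in 6419c5 KOA fell below WT while KOB overlapped it. The difference was 4.83 ± 0.64 (adjusted p 2.61e-05). Reg3b, an antimicrobial lectin (chromosome 6, 78370885 to 78373466), had effects of 1.76 and −2.78 and a difference of 4.54 ± 0.62 (adjusted p 3.12e-05), and Serpina1b, an alpha-1 antitrypsin (chromosome 12, 103728156 to 103738189), had 1.46 and −2.99 and a difference of 4.45 ± 0.46 (adjusted p 1.92e-06). Reg and Serpina1 genes have near-identical copies, so the assignment of reads within each family is uncertain.

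Keratin and squamous genes differed mostly in the other direction, with higher calls in 6419c5. Of 11 tested squamous and basal genes, 2 had a difference above 0 and 7 below (13.0% and 15.6% of all genes), or 0 and 2 with the line as a random effect. Of 19 simple epithelial keratin and adhesion genes, 0 were above and 8 below, or 14 below without KOA libraries 1 and 2 of 6694c2, and 0 were called either way in the random-effect fit. Krt5, Krt6a, Krt17 and Trp63, which mark basal cells, did not reach the level needed to be tested.

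Krt79, a keratin of hair canal and sebaceous duct cells (chromosome 15, 101929332 to 101940324), had the largest difference below 0 of the named genes. In 6694c2 it measured 35.5, 33.3, 30.7 and 35.5 TPM in WT, 25.4, 29.9, 35.9 and 36.1 in KOA and 9.11, 7.79, 9.20 and 10.1 in KOB. Its levels in 6419c5 were 5.33, 10.03 and 5.03 TPM in WT, 155, 83.5 and 64.9 in KOA and 272, 147 and 377 in KOB. KOA overlapped WT and KOB lay below it in 6694c2, and all KO libraries of 6419c5 lay far above WT. The line effects were −0.09 and −1.80 in 6694c2 and 3.67 and 5.05 in 6419c5, and the difference was −5.305 ± 0.35 (adjusted p 2.05e-08).

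Krt14, a keratin of basal cells, measured 100.1, 112, 127 and 102 TPM in WT, 171, 147, 119 and 136 in KOA and 208, 218, 233 and 194 in KOB of 6694c2, beside 1.66, 1.74 and 1.81 TPM in WT, 54.5, 27.7 and 26.2 in KOA and 55.0, 31.0 and 65.9 in KOB of 6419c5. It rose in both clones, from a high level in 6694c2 by 0.66 and from under 2 TPM in 6419c5 by 3.93, and the difference was −3.27 ± 0.28 (adjusted p 2e-07). Krt15, also of basal cells, measured 0.607, 0.279, 0.291 and 0.566 TPM in WT, 0.569, 1.0005, 0.601 and 0.905 in KOA and 0.475, 0.627, 0.471 and 0.867 in KOB of 6694c2, beside 0.769, 0.455 and 0.179 TPM in WT, 9.63, 7.47 and 7.94 in KOA and 17.6, 20.03 and 32.2 in KOB of 6419c5. It stayed under 2 TPM in all libraries of 6694c2, and in 6419c5 every KO library exceeded every WT library, with a difference of −3.12 ± 0.23 (adjusted p 4.09e-08). Krt13 (chromosome 11, 100117327 to 100121566), a keratin of wet squamous epithelium, rose in both lines of 6419c5 (1.82 and 2.66) and had 0.44 and −0.90 in 6694c2.

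The simple keratins were abundant in all libraries. Krt8 (chromosome 15, 101996711 to 102004342) measured 3496, 2855, 2822 and 3253 TPM in WT, 2915, 2925, 2234 and 2258 in KOA and 2582, 2878, 2872 and 2638 in KOB of 6694c2, beside 2608, 2775 and 2333 TPM in WT, 5309, 4806 and 5523 in KOA and 4771, 3993 and 5672 in KOB of 6419c5. KO libraries of 6419c5 lay above every WT library, and KO libraries of 6694c2 lay within or below the WT range. The difference was −1.18 ± 0.15 (adjusted p 1.6e-05), and it was −1.65 ± 0.21 (adjusted p 1.69e-05) for its partner Krt19, which rose in both clones. Dsg2, a desmosomal cadherin, and Cdh1, E-cadherin, had differences of −1.49 and −0.69.

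Klf5, a transcription factor of proliferating gut and pancreatic tumour epithelium (chromosome 14, 99298691 to 99313412), differed with a call in 6419c5 alone. The 6694c2 libraries held 248, 225, 200.5 and 214 TPM in WT, 214, 219, 213 and 204 in KOA and 212, 225, 212 and 218 in KOB. The 6419c5 libraries held 83.2, 84.1 and 80.1 TPM in WT, 154, 163 and 179 in KOA and 186, 199 and 215 in KOB. The 6694c2 lines overlapped throughout, and the 6419c5 libraries rose from WT to KOA and KOB, with KOB near the 6694c2 level. The effects were −0.04 ± 0.06 (adjusted p 0.562) and 1.13 ± 0.06 (adjusted p 5.7e-10), with a difference of −1.17 ± 0.08 (adjusted p 4.09e-08). Gata6, Hnf4a, Foxa2 and Cdx2, transcription factors of pancreas and gut epithelium, also had differences below 0, from −0.97 for Gata6 to −0.51 for Foxa2, whereas Hhex (1.25) was above 0. The summed tumour epithelium markers were 5367 to 6955 TPM in WT, 12598.8 to 13902 in KOA and 11019 to 14775 in KOB of 6419c5, and 6149 to 8665 over the lines of 6694c2. Their part in the other 6419c5 results was not tested.

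The squamous genes with a difference above 0 were Sprr1b and Lor, proteins of the cornified envelope. Sprr1b fell in 6419c5 (−2.56) more than in 6694c2 (−0.46), and Lor had effects of −2.48 and −1.15, the latter from KOB (−2.13) with −0.17 in KOA. Sprr2k (chromosome 3, 92432582 to 92433927), of a family with near-identical copies, fell in 6419c5 from 13.1, 27.1 and 38.5 TPM in WT to 1.94, 2.39 and 1.28 in KOA and 1.74, 1.51 and 1.02 in KOB and was under 1 TPM in all libraries of 6694c2.

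Several genes answered in 6694c2 and were not called in 6419c5. Fgfr3, a receptor tyrosine kinase for fibroblast growth factors (chromosome 5, 33721724 to 33737068), measured 0.917, 0.940, 1.05 and 0.643 TPM in WT, 7.74, 10.4, 6.86 and 6.78 in KOA and 41.2, 53.9, 49.4 and 29.6 in KOB of 6694c2. In 6419c5 it measured 1.29, 1.84 and 2.02 TPM in WT, 1.17, 1.05 and 1.40 in KOA and 4.08, 2.57 and 1.05 in KOB. All KO libraries of 6694c2 lay above WT, KOB above KOA, and those of 6419c5 lay on both sides of WT. The effect was 3.38 ± 0.19 (adjusted p 6.92e-10) in 6694c2, with a 95% interval of −0.46 to 0.48 in 6419c5, and the difference was 3.37 ± 0.29 (adjusted p 2.69e-07).

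Transcription factors of epithelium shared this form. Tfap2a, which encodes AP-2 alpha (chromosome 13, 40713802 to 40738238), measured 1.03, 0.750, 0.862 and 1.04 TPM in WT, 9.09, 6.59, 8.52 and 8.31 in KOA and 5.22, 5.36, 5.77 and 4.48 in KOB of 6694c2, beside 3.73, 3.20 and 5.02 TPM in WT, 3.14, 3.15 and 2.90 in KOA and 4.03, 5.34 and 4.19 in KOB of 6419c5. All KO libraries of 6694c2 lay above its WT libraries, KOA above KOB, and those of 6419c5 lay around WT. The difference was 2.03 ± 0.16 (adjusted p 1.01e-07), with 0.0266 as the adjusted p of the random-effect fit. Ehf, an epithelial ETS factor (chromosome 2, 103263431 to 103303275), measured 3.76, 3.43, 4.32 and 3.89 TPM in WT, 22.02, 16.4, 17.2 and 16.4 in KOA and 21.95, 19.7, 18.97 and 12.6 in KOB of 6694c2, beside 24.03, 18.6 and 15.1 TPM in WT, 19.2, 19.5 and 20.2 in KOA and 20.2, 22.7 and 19.3 in KOB of 6419c5. Both knockout lines of 6694c2 came to the level that all 6419c5 lines already had, and the effects were 1.97 ± 0.13 (adjusted p 2.89e-09) and 0.09 (95% interval −0.22 to 0.40). Hr, a nuclear corepressor of the hair follicle, rose in both lines of 6694c2 (0.96 and 1.91), while in 6419c5 KOA fell (−0.53) and KOB rose (0.45), so that its missing call there is a mean over lines that disagreed.

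Losses in 6694c2 were led by Fzd8, a Frizzled receptor for Wnt (chromosome 18, 9212856 to 9216201). It measured 9.46, 9.27, 7.82 and 7.91 TPM in WT, 0.268, 0.446, 0.512 and 0.178 in KOA and 0.816, 0.787, 0.788 and 0.409 in KOB of 6694c2, beside 0.266, 0.161 and 0.0282 TPM in WT, 0.333, 0.153 and 0.212 in KOA and 0.469, 0.334 and 0.342 in KOB of 6419c5. Both knockout lines of 6694c2 dropped to under 1 TPM, and every 6419c5 library was under 1 TPM as well. The difference was −2.85 ± 0.16 (adjusted p 2.33e-09), and the random-effect adjusted p was 0.000792. Apobr, the apolipoprotein B receptor (chromosome 7, 126584918 to 126589125), measured 93.6, 86.4, 84.2 and 85.3 TPM in WT, 43.1, 48.4, 57.9 and 67.6 in KOA and 9.85, 7.79, 9.12 and 9.17 in KOB of 6694c2, beside 33.2, 31.3 and 41.6 TPM in WT, 42.2, 44.4 and 43.1 in KOA and 31.6, 31.5 and 23.97 in KOB of 6419c5. KOB fell further than KOA in 6694c2, and the lines of 6419c5 had 0.29 and −0.28. The difference was −1.93 ± 0.16 (adjusted p 1.95e-07), and it was not called between 6694c2 KOA and 6419c5 KOB.

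Pthlh, parathyroid hormone-related protein (chromosome 6, 147252109 to 147264013), fell by line in 6694c2 (−0.61 in KOA and −2.54 in KOB), with a difference of −1.73 ± 0.18 (adjusted p 2.45e-06). Disp2, a Dispatched family protein (chromosome 2, 118779702 to 118795175), and Fam189a2 (chromosome 19, 23972750 to 24031436) fell as well, with differences of −2.15 and −2.32. Soga3 and Capn6, a calpain family member, rose in both lines of 6694c2 and were under 1 TPM in all 6419c5 libraries, with differences of 2.24 and 1.64.

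In 6419c5 alone, F3, tissue factor, which starts coagulation (chromosome 3, 121723537 to 121735052), measured 80.5, 146 and 64.4 TPM in WT, 421, 416 and 348 in KOA and 246, 248 and 299.7 in KOB. In 6694c2 it measured 78.1, 57.9, 59.9 and 72.4 TPM in WT, 98.7, 70.1, 82.1 and 75.3 in KOA and 45.0, 49.9, 46.8 and 54.6 in KOB. All KO libraries of 6419c5 lay above WT, and those of 6694c2 lay on both sides. The effects were 1.81 ± 0.18 (adjusted p 3.74e-07) in 6419c5 and −0.08 (95% interval −0.41 to 0.25) in 6694c2, and the difference was −1.89 ± 0.24 (adjusted p 1.43e-05).

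Gjb2, connexin 26 of gap junctions (chromosome 14, 57098602 to 57104702), measured 1.43, 2.48 and 0.731 TPM in WT, 32.9, 21.3 and 24.7 in KOA and 20.9, 15.5 and 31.6 in KOB of 6419c5, beside 0.765, 0.190, 0.144 and 0.345 TPM in WT, 0.730, 0.0378, 0.123 and 0 in KOA and 0, 0.0355, 0.0541 and 0.131 in KOB of 6694c2. It was under 1 TPM throughout 6694c2 and rose in every KO library of 6419c5, with a difference of −3.60 ± 0.31 (adjusted p 2.53e-07). Sema4f, a semaphorin (chromosome 6, 82911884 to 82939769), rose in both lines of 6419c5 (2.62 and 2.11), and Mlf1 (chromosome 3, 67374097 to 67400000) rose from 1.05, 2.15 and 1.02 TPM in WT to 10.6, 11.5 and 8.85 in KOA and 13.8, 8.68 and 12.6 in KOB. Cdhr2, a protocadherin of the brush border, rose in 6419c5 (1.93), and in 6694c2 KOA fell (−0.62) and KOB rose (0.68).

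Gpx8, Sod3 and Adamts9 were called lower in 6419c5 and not in 6694c2. Gpx8, a peroxidase of the endoplasmic reticulum (chromosome 13, 113042757 to 113046430), measured 95.7, 66.7 and 82.4 TPM in WT, 14.6, 10.8 and 11.1 in KOA and 15.6, 10.5 and 8.66 in KOB of 6419c5, beside 32.6, 31.5, 37.4 and 30.4 TPM in WT, 30.3, 28.4, 40.1 and 41.8 in KOA and 30.7, 25.3, 27.5 and 21.4 in KOB of 6694c2. Levels fell in every KO library of 6419c5 and lay around WT in 6694c2. The difference was 2.56 ± 0.22 (adjusted p 2.53e-07), with a random-effect adjusted p of 0.0251. Sod3, the extracellular superoxide dismutase (chromosome 5, 52363804 to 52369738), fell in 6419c5 from 119.7, 98.7 and 162 TPM in WT to 6.67, 8.18 and 7.73 in KOA and 29.0, 22.6 and 28.5 in KOB, with a 6694c2 effect of −0.11. Adamts9, a secreted metalloprotease, fell in 6419c5 (−1.82) with −0.16 in 6694c2. Cela1, a pancreatic elastase, fell in 6419c5 (−2.23), and in 6694c2 KOA fell (−0.78) and KOB rose (0.75).

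**Figure D3:**
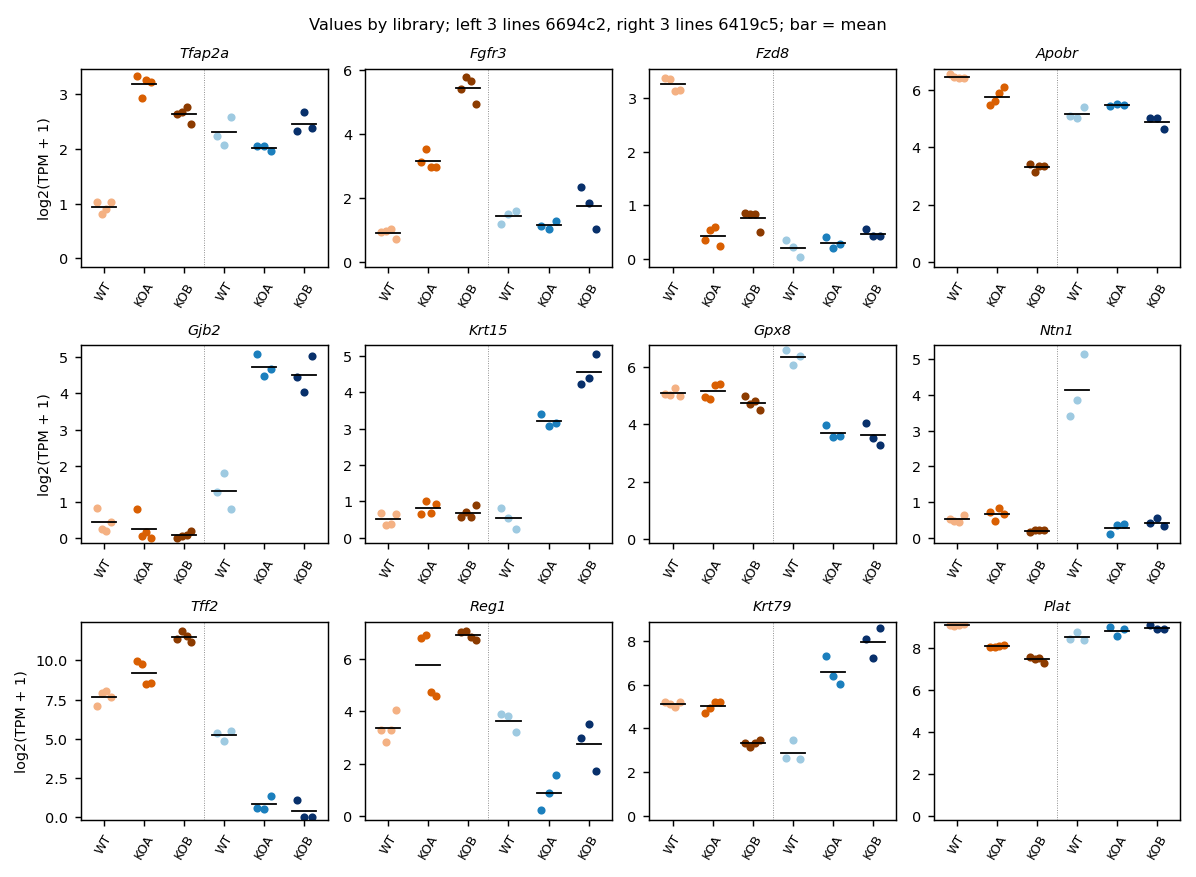
Level of 12 genes in each library on the log2(TPM + 1) scale, by clone and line, with a bar at the mean of each line. Tfap2a, Fgfr3, Fzd8 and Apobr move in 6694c2, Gjb2, Krt15, Gpx8 and Ntn1 in 6419c5, and Tff2, Reg1, Krt79 and Plat in opposite directions. For Tff2 the 6694c2 KO libraries lie between 363 and 3713 TPM and those of 6419c5 between 0 and 1.56 TPM.

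Beside Tff2 and Krt79, Plat, Ccnd2 and Rrm2 were called in opposite directions in the clones. Plat, tissue plasminogen activator (chromosome 8, 22757722 to 22782848), measured 554, 529, 548 and 578 TPM in WT, 268, 268, 276 and 288 in KOA and 194, 177, 184 and 156 in KOB of 6694c2. Its levels in 6419c5 were 344, 437 and 334 TPM in WT, 523, 386 and 480.1 in KOA and 549.8, 483 and 484 in KOB. KO libraries of 6694c2 lay below all WT libraries, and 5 of 6 KO libraries of 6419c5 lay above WT. The difference was −1.70 ± 0.12 (adjusted p 4.32e-08), and the random-effect adjusted p was 0.0251.

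Ccnd2, cyclin D2 (chromosome 6, 127125162 to 127152188), measured 22.4, 20.4, 19.3 and 20.5 TPM in WT, 41.1, 36.0, 32.7 and 30.7 in KOA and 111, 127, 112 and 85.5 in KOB of 6694c2, beside 131, 146 and 162 TPM in WT, 102, 91.3 and 116 in KOA and 77.3, 70.6 and 65.3 in KOB of 6419c5. It rose in 6694c2, toward the level of 6419c5, and fell in 6419c5, and the difference was 2.298 ± 0.15 (adjusted p 2.01e-08). Rrm2, a subunit of ribonucleotide reductase (chromosome 12, 24708254 to 24714146), fell in 6694c2 (−0.49 and −0.52 by line) and rose in 6419c5 (0.95 and 0.96), a difference of −1.46 ± 0.14 (adjusted p 1.01e-06).

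Among the other opposite genes, Meg3, an imprinted long non-coding RNA (chromosome 12, 109540996 to 109571729), fell from 7.34, 8.07, 7.81 and 8.65 TPM in 6694c2 WT to 2.29, 0.782, 2.33 and 2.14 in KOA and 0.977, 0.203, 0.316 and 0.565 in KOB. In 6419c5 it rose in KOB (1.93) with 0.35 in KOA. Selp, P-selectin, had differences of the same sign in all 4 pairings (−3.22 on average), as had Tmigd1 (−3.15). Pcdhgb2 fell in 6694c2 and rose in 6419c5 (−3.75), while Pcdhgb4 fell in 6419c5 alone. Both belong to the gamma protocadherin cluster, whose transcripts share their last exons, so the split of reads among them is uncertain. Clca3a1, named after its values were seen because it had the lowest random-effect adjusted p, fell in 6419c5 from 44.1, 30.9 and 30.6 TPM in WT to 3.61, 2.55 and 3.70 in KOA and 1.94, 2.17 and 2.08 in KOB and rose slightly in 6694c2.

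Ntn1, Pdpn and Smo fell in 6419c5, each with a difference above 0, and fibroblast and pericyte markers varied there as well. Mesenchymal genes as a list did not share a direction: of 20 EMT and mesenchymal genes, 4 were above 0 and 4 below, and of 19 collagens 2 were above and 6 below (13.0% and 15.6% of all genes). None of either list was called with the line as a random effect. Ntn1, the guidance cue netrin 1 (chromosome 11, 68209364 to 68386826), measured 9.59, 13.4 and 34.2 TPM in WT, 0.0864, 0.270 and 0.313 in KOA and 0.321, 0.456 and 0.253 in KOB of 6419c5, beside 0.446, 0.385, 0.351 and 0.566 TPM in WT, 0.638, 0.384, 0.784 and 0.601 in KOA and 0.111, 0.152, 0.158 and 0.166 in KOB of 6694c2. WT libraries of 6419c5 stood above all others, and they differed among themselves. The difference was 3.69 ± 0.31 (adjusted p 1.96e-07). Pdpn, podoplanin (chromosome 4, 143267409 to 143299564), had a difference of 3.19 ± 0.44 (adjusted p 3.25e-05), with 1.01 and −0.98 in the lines of 6694c2.

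The marker Dcn, decorin, measured 54.9, 123 and 237 TPM in the WT libraries of 6419c5. It measured 5.83, 5.97 and 7.46 in KOA and 13.7, 8.47 and 9.99 in KOB. Of the 8 fibroblast and pericyte markers, 3 had a difference above 0 and 0 below (13.0% and 15.6% of all genes). In all 4 pairings of lines 1 was called, and with the line as a random effect 0. In 6419c5 the 8 markers summed to 799.8 to 1163 TPM in WT, 544 to 702 in KOA and 1441 to 2080.1 in KOB. Their sum thus rose in KOB, where Dcn fell. The sums for 6694c2 are given above. Prrx1, a mesenchymal homeobox factor, and Col16a1, one of the 2 collagens above 0, measured 15.5, 23.5 and 40.2 and 16.4, 25.4 and 50.9 TPM in the same WT libraries, with differences of 1.47 and 2.01. S100a4, of the same list as Prrx1, had a difference of −1.15. The part of fibroblasts in these results was not tested.

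Of 6 tested Hedgehog genes, 3 had a difference above 0 and 1 below (13.0% and 15.6% of all genes). The 1 below was not called when Mir6236 was left out of the scaling, and the random-effect fit called 0 of the 6. Smo, the Hedgehog signal transducer (chromosome 6, 29735497 to 29761366), measured 49.8, 36.8 and 54.1 TPM in WT, 3.00, 3.09 and 3.34 in KOA and 3.17, 2.78 and 3.75 in KOB of 6419c5, beside 28.0, 28.0, 32.0 and 32.7 TPM in WT, 28.5, 34.7, 45.6 and 43.6 in KOA and 4.20, 5.86, 6.06 and 3.77 in KOB of 6694c2. It fell in both lines of 6419c5 and, in 6694c2, in KOB (−2.40) with 0.31 in KOA, and the difference was 2.46 ± 0.21 (adjusted p 1.85e-07). The part of fibroblasts in the fall of Smo was not tested. Gli3, a Hedgehog effector, had effects of −2.097 in 6419c5 and −0.19 in 6694c2, and Tead2, a partner of YAP (chromosome 7, 45215792 to 45233468), had −3.74 and −0.89.

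MHC class II genes, which present peptides to CD4 T cells, rose in both clones, more in 6694c2. Of 8 tested, 8 rose in 6694c2 and 6 in 6419c5, where 23.9% and 26.5% of all genes were called higher. Of the 8, 5 had a difference above 0 and 0 below (13.0% and 15.6% of all genes). Their induction is known to run through CIITA, which acts with RFX and NF-Y on promoters that hold an X box and a Y box, the latter reading CCAAT.

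Promoters of the alpha and beta chain genes with the strongest change are shown, as for the cholesterol genes, with CCAAT or ATTGG in capitals.

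H2-Eb1 promoter (chr17:34305617-34305916, plus strand): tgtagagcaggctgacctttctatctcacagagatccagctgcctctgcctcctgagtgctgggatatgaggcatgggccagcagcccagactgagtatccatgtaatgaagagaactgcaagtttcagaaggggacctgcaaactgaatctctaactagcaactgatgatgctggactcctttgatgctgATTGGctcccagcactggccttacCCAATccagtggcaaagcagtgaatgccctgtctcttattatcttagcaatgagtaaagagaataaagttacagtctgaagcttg
H2-Aa promoter (chr17:34287774-34288073, minus strand): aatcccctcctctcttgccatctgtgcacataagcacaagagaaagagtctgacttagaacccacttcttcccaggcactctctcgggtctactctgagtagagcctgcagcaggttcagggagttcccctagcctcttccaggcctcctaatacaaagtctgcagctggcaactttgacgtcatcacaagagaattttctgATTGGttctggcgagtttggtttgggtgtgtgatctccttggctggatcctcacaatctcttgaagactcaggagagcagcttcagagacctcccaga

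Of the 8 tested class II genes, 5 were found in the RefSeq table, and 5 of their 6 promoters held CCAAT (83.3%). H2-Eb1 (chromosome 17, 34305867 to 34316674) measured 4.79, 6.78, 5.2996 and 5.81 TPM in WT, 193, 147, 74.3 and 74.7 in KOA and 326, 270.1, 285 and 223 in KOB of 6694c2. The 6419c5 libraries held 14.2, 30.0 and 37.4 TPM in WT, 65.8, 250.2 and 97.9 in KOA and 18.4, 276 and 77.3 in KOB. All KO libraries of 6694c2 lay far above WT, while in 6419c5 the lines were wide, with KOB library 1 within the WT range and library 2 highest. The effects were 4.73 ± 0.50 (adjusted p 8.95e-07) and 1.84 ± 0.58 (adjusted p 0.0154), and the difference was 2.89 ± 0.76 (adjusted p 0.00841). H2-Aa had a difference of 2.65 and Cd74, the invariant chain, of 2.52, but Ciita had 0.74 ± 0.48 (adjusted p 0.265).

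These class II differences are not firm. None of the 8 genes was called in all 4 pairings of lines, 0 were called with the line as a random effect, and without 6419c5 KOB library 2 the count was 8. Antigen-presenting cells carry the same genes, and the macrophage sums given above varied between libraries, from 337 to 4379.8 TPM in 6419c5 KOA. Their part in the result was not tested.

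The wider interferon response was shared. Of 47 genes, 46 rose in 6694c2 and 45 in 6419c5, where 23.9% and 26.5% of all genes were called higher. A difference above 0 was called for 1 and below 0 for 2, near or under the 13.0% and 15.6% of all genes. Without 6419c5 KOB library 2 the count above 0 was 5, and without KOB library 1 the count below was 6. In the promoters of the list, the core of an interferon-stimulated response element (GAAA, any 2 bases, GAAA) was found on either strand in 20 of 41 (48.8%, against 3.44% of all promoters). TTCNNNGAA, a GAS element, was in 26.8% (8.3% of all), and TGANTCA, an AP-1 site, in 19.5% (7.81% of all). The exceptions were Irf8 (2.59), an interferon regulatory factor also made by myeloid cells, Ido1 (−2.27), which degrades tryptophan, and Oasl1 (chromosome 5, 114923143 to 114937911). Oasl1 measured 10.7, 18.7 and 13.0 TPM in WT, 35.6, 43.9 and 36.7 in KOA and 48.9, 58.7 and 66.0 in KOB of 6419c5, beside 33.8, 27.2, 31.3 and 34.8 TPM in WT, 44.2, 36.2, 23.2 and 25.1 in KOA and 33.6, 33.8, 33.0 and 39.0 in KOB of 6694c2. It rose in each KO library of 6419c5 and overlapped WT in 6694c2, with a difference of −1.65 ± 0.24 (adjusted p 5.23e-05).

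C3, the central complement component (chromosome 17, 57203967 to 57228136), measured 20.1, 28.3, 23.9 and 27.7 TPM in WT, 154, 269, 115 and 120.2 in KOA and 427, 501, 461 and 328 in KOB of 6694c2. In 6419c5 it measured 379.8, 405 and 290.3 TPM in WT, 541, 576 and 785 in KOA and 708, 765 and 501 in KOB. It rose in both clones, from a low level in 6694c2 and from a high one in 6419c5, and the difference was 2.48 ± 0.30 (adjusted p 9.12e-06). Of 13 complement genes, 5 were above 0 and 3 below (13.0% and 15.6% of all genes), and 0 were called with the line as a random effect.

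Negative feedback genes of the ERK pathway, which growth factor signals induce, were lower in 6694c2 KOB. Of 21, 1 had a difference above 0 and 10 below, beside 13.0% and 15.6% of all genes, and 0 of the 21 were called in the random-effect fit. The line medians were 0.08 (KOA) and −0.72 (KOB) for 6694c2 and 0.04 and 0.15 for 6419c5. Dusp5, an ERK phosphatase (chromosome 19, 53529145 to 53541809), measured 393, 336, 289 and 329 TPM in WT, 207, 170.3, 372 and 373 in KOA and 58.9, 77.6, 55.0 and 66.8 in KOB of 6694c2, beside 99.2, 92.8 and 132 TPM in WT, 126, 166 and 129 in KOA and 121, 135 and 164 in KOB of 6419c5. KOB fell far below WT in 6694c2, KOA libraries 1 and 2 lay below WT and libraries 3 and 4 within its range. The difference was −1.73 ± 0.28 (adjusted p 0.000172), called in 2 of the 4 pairings.

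Dusp6, another ERK phosphatase, had 0.26 and −0.72 in the lines of 6694c2 and 0.02 and 0.55 in those of 6419c5. Etv5, an ETS factor induced by ERK (chromosome 16, 22381313 to 22439570), went the other way, with a fall in both lines of 6419c5 (−0.94 and −0.90) and a difference of 0.95 ± 0.16 (adjusted p 0.000298). Without 6419c5 WT library 1 the count below 0 was 5.

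Glycolysis and hypoxia genes had the same form, with 0 of 27 above 0 and 11 below (13.0% and 15.6% of all genes) and line medians of 0.17, −0.72, 0.11 and 0.23. With the line as a random effect 0 of the 27 were called. Pfkp, platelet-type phosphofructokinase (chromosome 13, 6579874 to 6649060), measured 9.91, 18.8 and 19.8 TPM in WT, 40.3, 36.8 and 32.0 in KOA and 45.9, 53.7 and 64.7 in KOB of 6419c5, beside 66.8, 71.2, 68.7 and 73.0 TPM in WT, 87.9, 84.6, 75.1 and 74.5 in KOA and 62.0, 63.2, 57.4 and 64.6 in KOB of 6694c2. It rose in every KO library of 6419c5 and had a difference of −1.45 ± 0.20 (adjusted p 3.63e-05). Hk2, hexokinase 2, had effects of −0.47 and 0.68, and Slc16a3, a lactate exporter, fell in both lines of 6694c2 (−1.37 and −1.75) while the lines of 6419c5 disagreed (−0.96 and 0.997). Without 6419c5 WT library 1 the count above 0 was 2.

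Of 21 integrin and laminin genes, 3 had a difference above 0, near the share of all genes, and 10 below (13.0% and 15.6% of all genes). The random-effect fit called 0 of them. Itga3, the laminin receptor chain alpha 3 (chromosome 11, 95044475 to 95076844), had effects of −0.33 and 0.82 and a difference of −1.15 ± 0.13 (adjusted p 5.11e-06), and Itgb3 had −0.74 and 1.55. Itgb8, which activates TGF-beta, fell in 6419c5 (−1.18) from a low level.

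Eph receptors, the family of the targeted gene, fell more often than they rose in 6419c5. Of 8 tested, 5 had a difference above 0 and 1, Epha2, below (13.0% and 15.6% of all genes), and 0 were called with the line as a random effect. In 6419c5 5 were called lower and 0 higher, where 15.0% and 26.5% of all genes were so called. In 6694c2 2 were called higher and 1, Epha2, lower, near the 23.9% and 13.5% of all genes. Epha4 measured 8.65, 9.39 and 8.57 TPM in WT, 3.55, 1.95 and 3.88 in KOA and 2.72, 1.75 and 1.47 in KOB of 6419c5, beside 4.46, 3.63, 4.41 and 4.40 TPM in WT, 5.104, 2.44, 7.46 and 7.03 in KOA and 3.11, 3.34, 2.81 and 2.45 in KOB of 6694c2. Every KO library of 6419c5 lay below WT, while 6694c2 KO libraries lay on both sides of WT. Epha1, Epha7, Ephb3 and Ephb6 had differences of 0.91, 1.12, 1.35 and 1.56. Of 8 ephrins, 1 was above 0 and 1 below, near the shares of all genes. Efna5, a ligand of EphA receptors (chromosome 17, 62602957 to 62881317), fell in both lines of 6419c5 (−1.05 and −1.17), with −0.42 and 0.39 in those of 6694c2.

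Wnt genes had calls both ways, 7 of 31 above 0 and 6 below, beside 13.0% and 15.6% of all genes, and 0 and 1 with the line as a random effect. Wnt4, a ligand, measured 1.91, 1.42, 1.02 and 1.92 TPM in WT, 3.85, 8.45, 4.15 and 4.35 in KOA and 10.7, 10.8, 11.9 and 8.22 in KOB of 6694c2, beside 20.4, 11.4 and 8.23 TPM in WT, 4.78, 3.91 and 5.81 in KOA and 8.87, 7.25 and 5.38 in KOB of 6419c5. It rose in 6694c2 and fell in 6419c5, with 2.68 ± 0.32 (adjusted p 8.38e-06) for the difference. Lgr5, an R-spondin receptor and stem cell marker, had effects of 1.04 and −0.98. Axin2, a feedback target of Wnt, had −0.13 and 0.66.

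Guidance genes counted 4 of 26 above 0, or 2 without 6419c5 WT library 2, and 10 below. The count above 0 is near the share of all genes (13.0% and 15.6% of all genes), and the random-effect fit called 1 above 0 and 0 below. Plxnb1, a semaphorin receptor, had effects of 0.54 and −1.03, and Sema3e, a secreted semaphorin, −0.03 and 1.25. Of 12 Hox genes, 7 were above 0 and 2 below (13.0% and 15.6% of all genes), or 1 and 0 with the line as a random effect. Hoxa3 (chromosome 6, 52169059 to 52213067) had a difference of 2.75 ± 0.19 (adjusted p 4.09e-08).

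**Figure D4:**
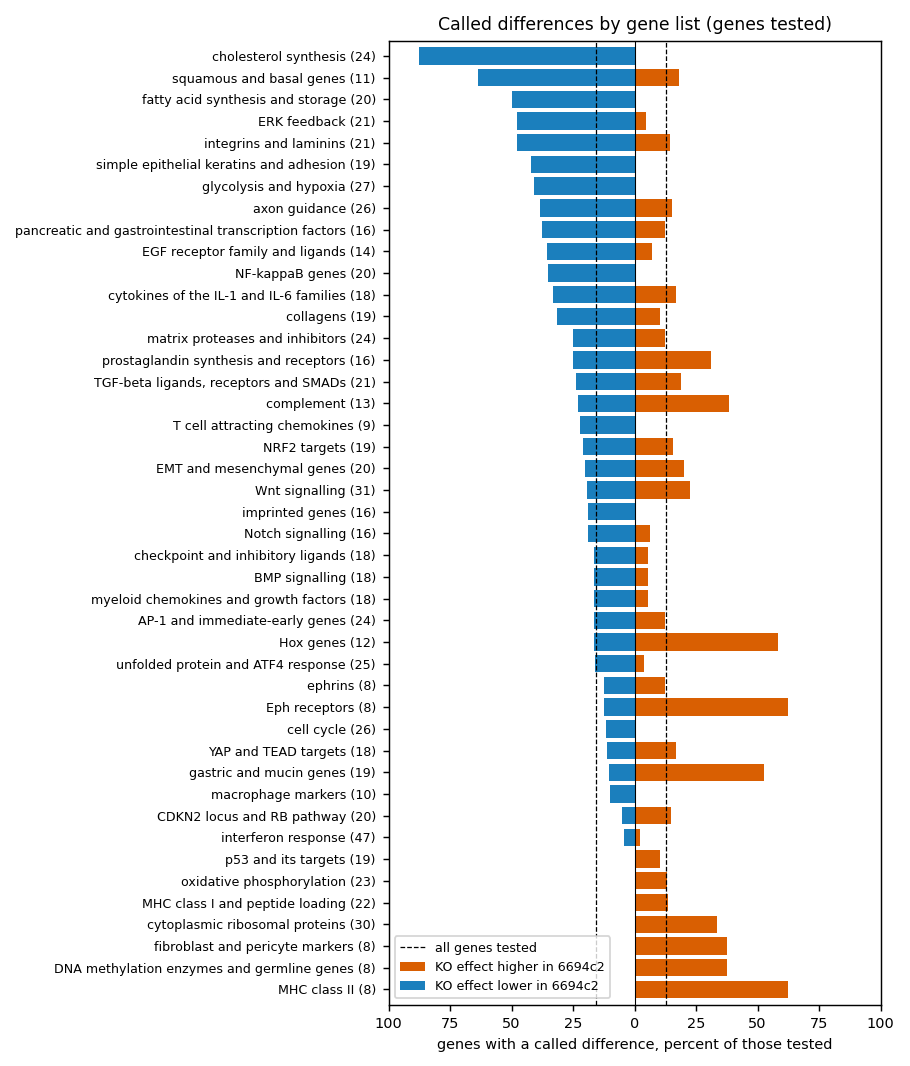
Percent of the tested genes of each list with a called difference above 0 (to the right) and below 0 (to the left), for lists of at least 8 tested genes. Dashed lines mark the 13.0% and 15.6% of all tested genes, and cholesterol synthesis reaches furthest below 0 with 21 of 24 genes.

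The called genes were not spread evenly over the chromosomes. On chromosomes 1, 2 and 4, 25.6%, 21.5% and 21.6% of tested genes had a difference above 0 and 6.58%, 8.43% and 8.67% below. Chromosomes 3, 15 and 18 had the reverse, with 7.1%, 6.29% and 7.55% above and 27.4%, 26.7% and 30.5% below.

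Among 137 windows of 20 Mb with at least 20 tested genes, 6 had over 40% of genes called in 1 direction. On chromosome 6, 50.0% were below 0 from 60 to 80 Mb and 47.3% from 100 to 120 Mb, and 44.6% were above 0 from 120 to 140 Mb. The median knockout effects of 6419c5 KOA and KOB in these windows were 0.40 and 0.43, 0.41 and 0.39, and −0.39 and −0.42. On chromosome 11 from 120 Mb on, 51.9% were below 0, with medians of 0.55 and 0.56.

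Genes described above lie in such windows. Ccnd2 is in the chromosome 6 window that was above 0, with which its own difference runs. Fzd8, with a difference below 0, is in the window from 0 to 20 Mb of chromosome 18, where 46.7% were below 0. The medians of that window were −0.1 and −0.13 in KOA and KOB of 6694c2 and 0.07 and 0.48 in those of 6419c5. The effects of Fzd8 in the same lines were −2.83 and −2.50, and 0.10 and 0.27. Reg1 and Reg3b are in a chromosome 6 window that was below 0, against which their own differences run. The other window past this limit was on chromosome 17. Fdps and Pmvk, with differences below 0, share a window short of this limit, from 80 to 100 Mb of chromosome 3. There 35.7% were below 0 and 4.31% above. Its medians were −0.03 and 0.04 in KOA and KOB of 6694c2 and 0.28 in each knockout line of 6419c5. DNA copy number was not analysed here, and its part in these results was not tested.

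**Figure D5:**
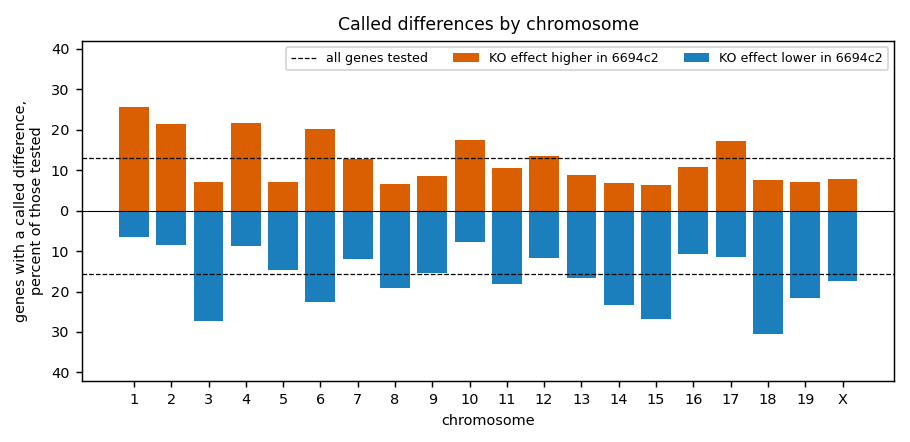
Percent of tested genes with a called difference above and below 0 on each chromosome. Chromosomes 1, 2 and 4 lean above 0, and chromosomes 3, 15 and 18 lean below.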

How the data were processed

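RNA came from sorted tumour cells, with the Qiagen RNeasy Micro kit, an NEB library kit and an Illumina NextSeq 550, per the labels. The authors deposited 1 table of TPM for all 21 libraries, summing to 1000000 in each. Per the submitters' processing notes Salmon and mm10 were used. The Salmon version, the annotation, the transcript-to-gene step and the strand setting are not given in the sources used here. The depth is unknown, since TPM carries no count. A very abundant RNA, Mir6236 (22664.9 to 145023 TPM), moves all other values of a library. It was highest in 6694c2 KOB library 4 (145023 TPM), followed by 6419c5 WT library 3 (91141.5 TPM).

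Genes that reached 1 TPM in 3 or more libraries were kept, and log2(TPM + 1) was fitted with limma 3.58.1 in R 4.3.3 as 6 line means with an intensity trend. Fold changes on this scale understate the change of low genes. Adjusted p values are those of limma, by the Benjamini-Hochberg method across all 14337 genes, with 0.05 as the threshold. Values after ± are standard errors of the fit.

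Genes were named by rule: from each class called in 1 clone, the 4 largest differences with both lines called and the other clone's interval within 0.5 of 0, and the 2 largest where the other clone held under 0.5 TPM; from each opposite class, the 5 largest; and from each of 54 gene lists the gene with the smallest p, or 3 for 7 core lists. Epha2 was named whatever its values. The rule did not pick every gene given with values above. Those outside it, among them Krt14, Krt15, Hmgcs1, Epha4 and Wnt4, were picked as examples and are not among the named genes counted below. The genes and lists were chosen with earlier results of these data known, and no list carries a test of its own. The fit was tested on simulated data in which both knockout lines of a clone had the same mean. That test held no spread between lines and cannot say how the calls fare under it. Alternatives covered pseudocounts of 0.1 and 5, filters, scalings, the line as a random effect, pooled or single lines, weights, a macrophage covariate, a replicate block and each library left out. Leaving out KOA libraries 1 and 2 or 3 and 4 of 6694c2 was chosen after seeing the data. Figures were drawn with matplotlib 3.10.9. Some members of the gene lists are counted with their list and not reported by gene here.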

Additional observations from a re-analysis of the deposited data

Results flagged for a closer look

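Each of the 90 genes listed here, named by rule, differed between the clones by a test of the difference itself, limma's moderated test with adjustment over all tested genes. The values below are the difference, the knockout effect in 6694c2 minus that in 6419c5, on the log2(TPM + 1) scale.

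Furthest above 0 were Tff2 (7.31), Gkn1 (4.95), Reg1 (4.83), Reg3b (4.54), Serpina1b (4.45), Tff1 (4.15), Rhox5 (3.75), Ntn1 (3.69), Pgc (3.60) and Dcn (3.49). Lower but still above 0 were Fgfr3 (3.37), H2-Q7 (3.28), Pdpn (3.19), Sprr2k (3.15), Sod3 (2.92), H2-Eb1 (2.89), Tead2 (2.85), Hoxa3 (2.75), H2-Aa (2.65) and Pcdhgb4 (2.61). Further genes above 0 were Irf8 (2.59), Gpx8 (2.56), Cd74 (2.52), C3 (2.48), Smo (2.46), Ccnd2 (2.298), Soga3 (2.24), Cela1 (2.21), Cd52 (2.19) and Tfap2a (2.03). A difference above 0 was also found for Col16a1 (2.01), Ehf (1.88), Adamts9 (1.65), Capn6 (1.64), Hr (1.47), Prrx1 (1.47), Plk2 (1.12), Efna5 (1.09), Etv5 (0.95) and Xbp1 (0.91). Above 0 as well were Ly6g (0.79), Rpl27a (0.52) and Ndufs1 (0.40).

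Furthest below 0 were Krt79 (−5.30), Pcdhgb2 (−3.75), Gjb2 (−3.60), Meg3 (−3.28), Selp (−3.22), Tmigd1 (−3.15), Fzd8 (−2.85), Sema4f (−2.49), Krt13 (−2.47) and Mlf1 (−2.44). Next below 0 were Fam189a2 (−2.32), Serpinb12 (−2.28), Ido1 (−2.27), Disp2 (−2.15), Apobr (−1.93), Cdhr2 (−1.91), F3 (−1.89), Jag2 (−1.76), Dusp5 (−1.73) and Pthlh (−1.73). Further genes below 0 were Nt5e (−1.72), Plat (−1.70), Cxcl10 (−1.67), Oasl1 (−1.65), Rrm2 (−1.46), Pfkp (−1.45), Il1rn (−1.44), Bmp4 (−1.32), Klf6 (−1.29) and Fdps (−1.27). A difference below 0 was also found for Gsr (−1.24), Krt8 (−1.18), Mvk (−1.18), Epha2 (−1.18), Klf5 (−1.17), Itga3 (−1.15), S100a4 (−1.15), Ptges (−1.13), Pmvk (−1.12) and Hbegf (−1.10). Below 0 as well were Ier3 (−1.002), Maff (−0.92), Elovl5 (−0.87), Il34 (−0.84), Cd14 (−0.77), Nfkbiz (−0.73) and Vwf (−0.50).

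Of the 270 groups of 4 libraries that these genes give, 19 held a library far from the others, where its gap to the nearest was large against the whole range by Dixon's criterion. Chance gives about 1 in 20 groups. In WT of 6694c2 these were Serpinb12 at 2.26 TPM in library 1 (lowest), Pcdhgb2 at 11.7 TPM in library 2 (highest), Selp at 4.77 TPM in library 1 (lowest), Irf8 at 9.34 TPM in library 2 (highest), Pdpn at 4.34 TPM in library 2 (highest), Mvk at 30.4 TPM in library 1 (lowest) and Ly6g at 0.120 TPM in library 3 (highest). In KOA of 6694c2 these were Ehf at 22.02 TPM in library 1 (highest), Mlf1 at 0.103 TPM in library 3 (highest), Sod3 at 64.8 TPM in library 4 (highest), Meg3 at 0.782 TPM in library 2 (lowest), Cxcl10 at 36.9 TPM in library 2 (lowest) and Xbp1 at 115 TPM in library 4 (lowest). In KOB of 6694c2 these were Hr at 37.2 TPM in library 4 (lowest), Soga3 at 19.8 TPM in library 4 (lowest), Fzd8 at 0.409 TPM in library 4 (lowest), Cdhr2 at 2.23 TPM in library 1 (lowest), Oasl1 at 39.0 TPM in library 4 (highest) and Etv5 at 18.8 TPM in library 4 (lowest). KOB library 4 was the lowest for Hr, Soga3, Fzd8 and Etv5 and the highest for Oasl1. It held 145023 TPM of Mir6236, beside 24832.5, 22664.9 and 26806.3 in KOB libraries 1, 2 and 3. The part of Mir6236 in these values was not tested. Groups of 6419c5 hold 3 libraries and were not examined in this way.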

How the results depend on the processing

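Under other pseudocounts, filters, scalings and priors, each count of called genes stayed within 1.5 times its reported value, except where its value is given in the next 2 paragraphs. Of 91 named genes, 88 were called without each library in turn and 67 in all 4 pairings of lines. With the knockout lines of a clone pooled 70 were called, and with the line as a random effect 14. Ly6g, Cd52 and Vwf were the 3 named genes lost when 1 library was left out. Nearly all named genes were picked for a large difference or a small p, so their counts do not measure how called genes hold in general. Of all 4104 called genes, 2704 were called without each library in turn and 1053 in all 4 pairings.

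In the order higher and lower for the difference, higher and lower in 6694c2 alone, higher and lower in 6419c5 alone, and opposite with 6694c2 higher and lower, pooling the lines gave 804, 997, 226, 207, 601, 427, 74 and 80 genes. The line as a random effect gave 15, 24, 3, 6, 18, 12, 0 and 0. Array weights gave 2804 higher, 1056 higher in 6694c2 alone and 461 opposite with 6694c2 higher. Size factors by median of ratios gave 682 lower in 6694c2 alone.

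With KOA of both clones, 279 genes were lower in 6694c2 alone, and 158 and 134 were opposite. With 6694c2 KOA and 6419c5 KOB, 307 and 255 were called in 6694c2 alone, and 156 and 180 were opposite. With 6694c2 KOB and 6419c5 KOA, 1341 and 1059 were called in 6694c2 alone, and 630 were higher in 6419c5 alone. With KOB of both clones, 1094 and 978 were called in 6694c2 alone, and 371 and 628 were opposite. Only 6694c2 KOA with 6419c5 KOB reversed named genes, Ptges to 0.0021 and S100a4 to 0.40. The cause was not tested.

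Leaving out 1 library at a time gave ranges of 1507 to 2138, 1816 to 2346, 441 to 711, 376 to 500, 816 to 1101, 565 to 868, 173 to 300.0 and 217 to 300.0, in the same order. Of 21 same-numbered pairs of libraries, 6 correlated above 0.1 (range −0.147 to 0.173). Different-numbered pairs went as low as −0.335 and as high as 0.294. With 3 or 4 libraries per line, such values cannot decide whether replicate numbers pair the libraries. A replicate block gave 1618, 1983, 517, 412, 953, 640, 203 and 240. Rescaling without Mir6236 gave 2293 higher and 2032 lower, size factors 2130 and 2499, and quantiles 2201 and 2440. TPM tables hold no depth, so the precision of low values is unknown.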
